A study of Homo sapiens with 4 samples.

Results

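H2AK119ub peaks that kept 1 partner in each list but measured at most 0.5 of their wild-type width after YTHDF1 knockdown are described here. A pair was formed by a wild-type and a knockdown peak on chromosomes 1 to 22 that shared at least 1 bp with each other and touched no other peak. The lists held 32451 wild-type and 34097 knockdown peaks on these chromosomes, and 16791 such pairs. Members were chosen by their width ratio, and 2137 pairs met the threshold, 12.7% of the one-to-one pairs (95% Wilson interval 12.2 to 13.2, which covers the number of pairs only). They hold 6.59% of the wild-type peaks. The ratio itself is therefore a description of how the pairs were picked, and no difference in width is tested.

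Both groups are H1, an established line of human embryonic stem cells, grown in mTESR1 medium. The first was untreated and is called wild type here, and the second, YTHDF1 KD H1, received YTHDF1 shRNA, a short hairpin RNA against that gene. Each group had 1 H2AK119ub library and 1 input library, with no replicate, and the inputs were not analysed here. The labels name neither the hairpin sequence nor whether the knockdown cells were a clone. Peaks carry no RNA level, so neither the loss of YTHDF1 nor the stem cell identity was checked. Depth is unknown, since the lists hold no read counts, and without replicates no p-value is given. Positions are in hg38.

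H2AK119ub is a single ubiquitin on a lysine near the end of histone H2A, placed by the RING1 and RNF2 ligases of Polycomb repressive complex 1 (PRC1). Variant forms of that complex reach unmethylated CpG-rich promoters through the CpG-binding subunit KDM2B, and the mark is known for holding developmental genes silent in embryonic stem cells. YTHDF1 is a cytoplasmic reader of m6A, an adenosine methylation found in mRNA. Broad domains of the mark can surround CpG-rich gene starts, so the place of each narrowed peak relative to starts and CpG content was recorded.

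Promoter windows from 3 pairs of each kind show what stood inside and outside the narrowed peaks. Each runs from 250 bases before to 50 bases after a gene start, from RefSeq on GRCh38.p14, which shares coordinates with hg38. They come from the pairs with the most wild-type bases outside the knockdown peak that held a single start. Each is read 5′ to 3′ on the gene's strand with every CG dinucleotide in capitals. In the first 3 the window stayed inside the knockdown peak.
UBXN6 (chr19:4455252-4455551, minus strand): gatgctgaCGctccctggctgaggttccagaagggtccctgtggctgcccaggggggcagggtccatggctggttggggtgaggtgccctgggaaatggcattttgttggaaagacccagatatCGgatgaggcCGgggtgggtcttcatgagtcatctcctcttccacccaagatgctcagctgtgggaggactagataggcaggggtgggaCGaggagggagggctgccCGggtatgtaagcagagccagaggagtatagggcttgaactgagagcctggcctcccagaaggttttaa
ZFR2 (chr19:3868989-3869288, minus strand): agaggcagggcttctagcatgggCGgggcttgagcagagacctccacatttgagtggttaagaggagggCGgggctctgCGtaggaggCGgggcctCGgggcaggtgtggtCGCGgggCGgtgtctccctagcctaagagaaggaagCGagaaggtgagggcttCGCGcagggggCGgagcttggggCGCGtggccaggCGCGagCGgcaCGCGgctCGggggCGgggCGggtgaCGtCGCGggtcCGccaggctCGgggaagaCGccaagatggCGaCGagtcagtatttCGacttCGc
SLC25A42 (chr19:19063744-19064043, plus strand): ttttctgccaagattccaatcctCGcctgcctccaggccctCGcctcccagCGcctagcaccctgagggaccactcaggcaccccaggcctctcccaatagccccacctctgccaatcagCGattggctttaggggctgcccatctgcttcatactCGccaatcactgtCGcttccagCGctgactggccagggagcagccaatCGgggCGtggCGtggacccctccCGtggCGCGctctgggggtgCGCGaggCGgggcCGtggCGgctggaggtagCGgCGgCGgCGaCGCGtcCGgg
In the other three the window lay in the wild-type peak but outside the knockdown peak.
ZNF280A (chr22:22520221-22520520, minus strand): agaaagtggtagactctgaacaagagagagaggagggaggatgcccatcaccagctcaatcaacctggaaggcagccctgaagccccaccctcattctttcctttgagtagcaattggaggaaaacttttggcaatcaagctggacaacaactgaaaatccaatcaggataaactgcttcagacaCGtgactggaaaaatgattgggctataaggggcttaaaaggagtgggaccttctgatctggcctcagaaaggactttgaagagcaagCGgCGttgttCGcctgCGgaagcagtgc
RASGRP4 (chr19:38426170-38426469, minus strand): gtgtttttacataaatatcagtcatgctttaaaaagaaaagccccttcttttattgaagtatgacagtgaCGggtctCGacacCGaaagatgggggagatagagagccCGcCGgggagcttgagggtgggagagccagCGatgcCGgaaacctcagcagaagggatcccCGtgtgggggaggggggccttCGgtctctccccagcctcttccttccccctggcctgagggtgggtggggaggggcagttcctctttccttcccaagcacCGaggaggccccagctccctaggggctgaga
SPATC1L (chr21:46184410-46184709, minus strand): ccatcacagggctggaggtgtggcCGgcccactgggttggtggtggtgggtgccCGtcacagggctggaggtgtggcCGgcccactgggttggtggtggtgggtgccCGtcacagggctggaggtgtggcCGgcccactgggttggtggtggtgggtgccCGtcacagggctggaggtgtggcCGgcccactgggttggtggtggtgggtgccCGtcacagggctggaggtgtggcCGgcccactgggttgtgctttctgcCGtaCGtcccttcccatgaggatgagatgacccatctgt

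The retained windows of ZFR2 and SLC25A42, the latter a mitochondrial carrier of coenzyme A, held 32 and 25 CG dinucleotides. That of UBXN6, a cofactor of the segregase VCP, held 5. The uncovered windows of ZNF280A, RASGRP4 and SPATC1L held 5, 10 and 11. RASGRP4 is a Ras exchange factor of mast cells, and the letters of the SPATC1L window repeat in tandem. The wild-type peak at UBXN6 measured 16.4 kb and its knockdown partner 2.4 kb, and the knockdown peak ended 0.3 kb into the gene. At ZNF280A, a zinc finger gene, a wild-type peak of 15.8 kb faced a knockdown peak of 4 kb, and the start lay 3.07 kb away from the knockdown peak.

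In most members what stayed in the knockdown list was a short piece inside the wild-type domain, with the knockdown peak wholly inside it in 1745 of 2137. Over all members the median width of the wild-type peaks was 6 kb (quartiles 4.6 and 7.8 kb), and that of the knockdown peaks 2.2 kb (1.6 and 3 kb). Together they spanned 13.8 Mb in the wild type and 5.26 Mb in the knockdown. A median of 3.6 kb per pair lay outside the knockdown peak (2.8 and 5 kb), from 0.8 to 16.2 kb. The sum was 8.87 Mb, which is 33.9% of the wild-type bases left uncovered over all one-to-one pairs. The ratio was above 0.4 in 1088 members, above 0.25 and up to 0.4 in 842, and 0.25 or less in 207. About as many members lay above 0.4 as at or below it.

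**Figure D1:**
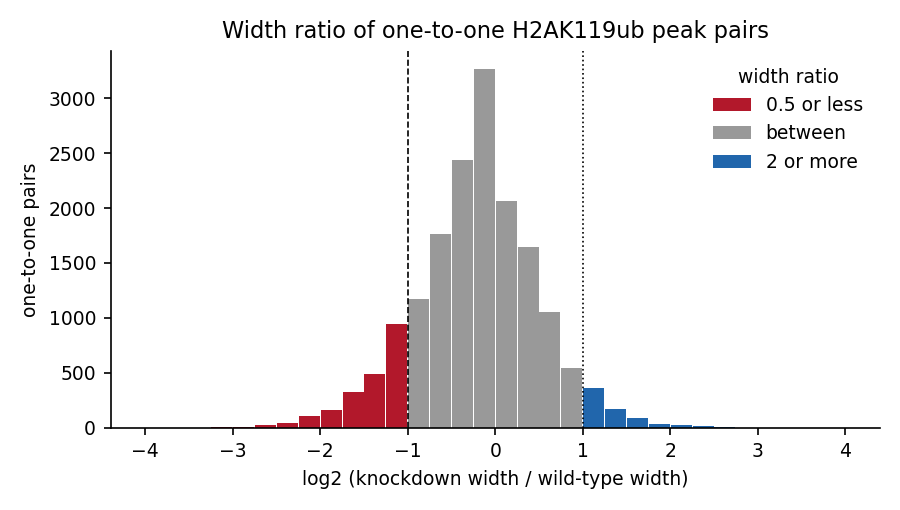
Histogram of the log2 ratio of knockdown to wild-type width over the 16791 one-to-one pairs, in steps of 0.25, with bars for the number of pairs. The dashed line marks a ratio of 0.5 and the dotted line a ratio of 2, and the left tail of 2137 pairs is larger than the right tail of 711.

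The opposite change was rarer. Pairs whose knockdown peak was at least 2 times as wide as its wild-type partner numbered 711, or 4.23% of the one-to-one pairs, so halved pairs made up 75% of both kinds. The lists differ in width as a whole, with a median ratio of 0.889. When each ratio was divided by that median, 1446 pairs were halved and 1025 doubled, and halved pairs made up 58.5%. The imbalance between halving and doubling was thus smaller after that scaling.

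Values on either side of the threshold differed little. Just inside, at a ratio of 0.5, the widest pair covered MYO1C, an unconventional myosin, and INPP5K, an inositol phosphatase, on chromosome 17, with 23.2 kb against 11.6 kb. Its wild-type peak was the single member at the score ceiling. The next 3 measured 18 against 9 kb near CLIP2, 14.8 against 7.4 kb inside the cholesterol transporter gene ABCG1 and 11.6 against 5.8 kb over TSHZ3-AS1. Just outside, MAPK8IP1 and PEX16 had 18.2 against 9.2 kb, and TGIF1, a homeobox repressor, 13.8 against 7 kb. The tumour necrosis factor genes LTA, TNF and LTB had 14.6 against 7.4 kb, and the ubiquitin-like modifier gene SUMO3 12.2 against 6.2 kb. Exactly 219 members had a ratio of 0.5, since widths move in steps of 200 bp.

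The narrowed peak usually left both flanks of the wild-type domain. In 1575 members (73.7%) wild-type bases were uncovered on both sides, and in 562 on 1 side. Of the latter, 392 knockdown peaks reached past the opposite wild-type edge and 170 ended flush with it. Where both flanks were uncovered, the shorter measured a median of 1 kb and the longer 2.6 kb, so the flanks were uneven within a pair. Measured from the lower to the upper edge of the wild-type peak, the midpoint of the knockdown peak lay at a median of 0.5 of the width (quartiles 0.317 and 0.674). The 7895 other pairs that were narrower in the knockdown were uncovered on both sides in 37.8%. Their uncovered bases were fewer by the choice of the threshold, with a median of 1.6 kb, so no weight is put on that difference.

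Domains of intermediate width were halved most often. By the width of the wider peak of each pair, the halved share was 8% between 2 and 4 kb, 13.1% between 4 and 6 kb, 16.9% between 6 and 8 kb and 18.9% between 8 and 10 kb. It was 8.06% between 15 and 20 kb and 2.52% above 20 kb, where 6 of 238 pairs were halved. Doubled pairs were most frequent between 6 and 8 kb (5.48%) and absent above 15 kb. Halved pairs outnumbered doubled ones 2.53 times between 4 and 6 kb and 9.2 times between 10 and 15 kb. By number, 769 members lay between 4 and 6 kb, among 5848 pairs of that width. Between 6 and 8 kb there were 505, among 2995 pairs. These widths were thus common among all one-to-one pairs as well as among the members.

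**Figure D2:**
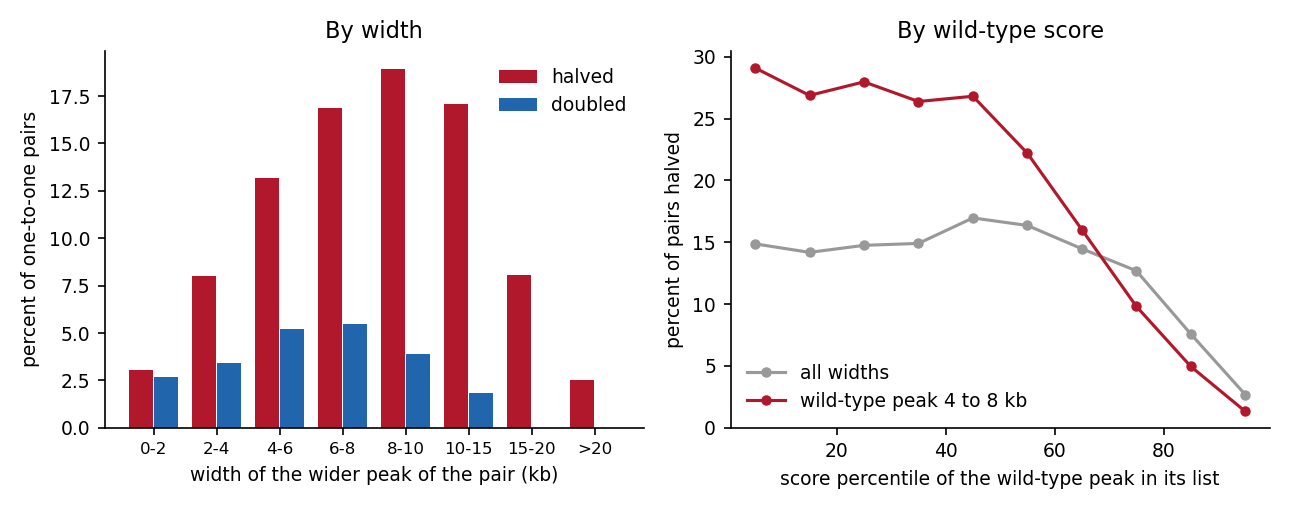
Left, percent of one-to-one pairs that were halved (red) or doubled (blue) in the knockdown, by the width of the wider peak in kb. Right, percent of pairs halved by the percentile of the wild-type peak's score in its own list, in steps of 10, for all pairs (grey) and for wild-type peaks of 4 to 8 kb (red), where the share falls from 29.1% to 1.33%.

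Members were seldom the highest-scoring peaks of either list. The deposited score of each peak is the authors' own value, used here only to rank peaks within a list. Wild-type peaks of halved pairs had a median percentile of 52.2 in their list, and the wild-type peaks of all other one-to-one pairs 61.0. Knockdown peaks of halved pairs had a median percentile of 45.1 in theirs, against 62.1 for the other pairs. Doubled pairs also ranked low, with medians of 43.6 for their wild-type and 50.4 for their knockdown peaks. A low median rank was thus common to pairs with a large change of width in either direction. Among wild-type peaks of 4 to 8 kb the halved share was 29.1% in the lowest 10% by score, 22.2% between percentiles 50 and 60, and 1.33% in the highest 10%. Only 1 of the 416 one-to-one pairs with a wild-type score at the ceiling of 1000 was halved. Over all widths the halved share was between 14.2% and 17.0% in every step of 10 percentiles up to 70, with the highest value between 40 and 50. It was 12.7% between 70 and 80, 7.59% between 80 and 90 and 2.69% above 90. Halving was thus rarer among high-scoring peaks. At 4 to 8 kb the share was between 26.4% and 29.1% in every step up to percentile 50, and fell in each step above. The part of signal strength and of depth in the halving was not tested.

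The 10 pairs with the most uncovered bases had 12.4 to 16.2 kb each outside the knockdown peak. Of these, 9 touched a protein-coding gene, 4 held a gene start, and 4 lay on chromosome 19. LHPP, a histidine phosphatase gene on chromosome 10, had a wild-type peak of 19.2 kb (124561001 to 124580200) and a knockdown peak of 3 kb, both wholly inside the gene. ZMIZ1, a transcriptional coactivator gene, had 17.6 against 3.4 kb, also inside the gene body. LRP8, which encodes a reelin receptor, had 16.8 against 3.8 kb, and the knockdown peak reached past the upper edge. FAM107A on chromosome 3 had 16.6 against 3.8 kb, with 12.6 of the 12.8 uncovered kb on 1 side, and had both covered and uncovered starts. In these 4 the wild-type peak lay within a single gene. The first in the order, of 21.8 against 5.6 kb, lay over the pseudogene MROH4P on chromosome 8, 17.2 kb from the nearest protein-coding gene, ARC.

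Chromosome 19 gave 4 more. The domain over UBXN6 and CHAF1A, the large subunit of chromatin assembly factor 1, kept the UBXN6 start (16.4 against 2.4 kb). At PRAM1 and ZNF414 the domain measured 22.8 against 9 kb, and starts of both genes lay outside the knockdown peak. The domain over SAMD4B, PAF1 and MED29 measured 20.2 against 7.2 kb. PAF1 encodes a subunit of an RNA polymerase II elongation complex and MED29 a Mediator subunit, and starts of both were uncovered. MAP2K2, the MEK2 kinase gene, had 13.2 against 3.2 kb. The remaining pair covered CAPZB, an actin capping subunit, and SLC66A1, a lysosomal amino acid exporter, on chromosome 1, with 24 against 10.6 kb. Their wild-type peaks ranked between percentiles 72.7 and 95.3 of the list, so these pairs were not among its low-scoring peaks.

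**Figure D3:**
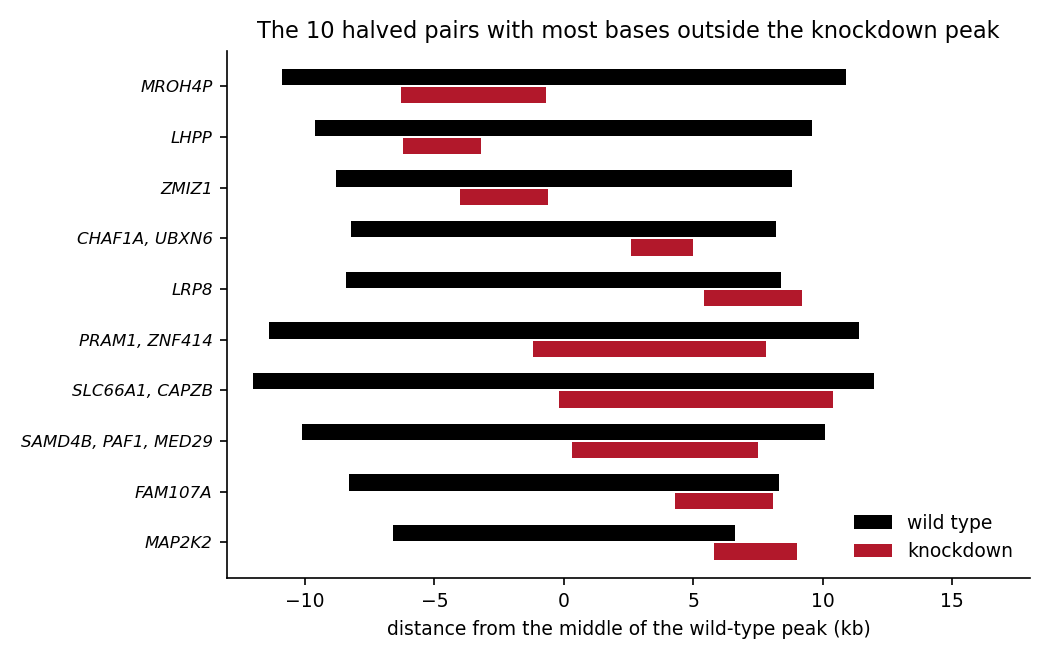
The 10 halved pairs with the most wild-type bases outside the knockdown peak, drawn to scale in kb from the middle of the wild-type peak (black, wild type, and red, knockdown), each row named by the genes it overlaps. The knockdown peak lies inside the wild-type peak in 8 of 10, and off its middle in most rows.

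The steepest narrowing among wild-type peaks in the upper 50% by score ran from a ratio of 0.0667 to 0.138. The extreme was a 3 kb wild-type peak over the pseudogene PDCD6IPP2 on chromosome 15, which met a knockdown peak of 0.2 kb. RCAN1, a calcineurin inhibitor gene on chromosome 21, had 8.4 against 0.8 kb, with covered and uncovered starts. SARDH, a mitochondrial sarcosine dehydrogenase gene, had 12.4 against 1.6 kb, wholly inside the gene. PTGES2, a prostaglandin E synthase gene, had 9.4 against 1 kb. AGAP1, a regulator of Arf GTPases, had 11.6 against 1.6 kb, and a start or annotated end of the gene was uncovered. HPS1, which serves lysosome-related organelles, had 7.4 against 1 kb with the start covered. TMEM270 on chromosome 7 had 11.6 against 1.6 kb. BORCS8 on chromosome 19, which positions lysosomes, had 4.8 against 0.6 kb, as did the stretch over TLX1NB on chromosome 10. PRAME on chromosome 22, a cancer-testis antigen gene, had 11.6 against 1.6 kb with its start uncovered.

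Gene starts tended to stay inside the narrowed peak. A start here is any RefSeq start of a protein-coding gene with known strand, or either annotated end of the 4025 genes for which no start was matched. Of the members, 757 (35.4%) held at least 1 start in the wild-type peak, with 1057 starts of 864 genes. Of these starts, 798 (75.5%, 95% Wilson interval 72.8 to 78.0) lay in the knockdown peak, which covered 35.9% of the wild-type bases. That is 161 starts per Mb in the retained part and 29.2 per Mb in the uncovered part, a ratio of 5.51. With starts of known strand alone, 80.2% of 847 stayed inside. In 541 members every start was kept, in 157 none was, and in 59 some were.

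Starts were also denser in the shared bases of the other pairs. In the other narrower pairs 94.8% of starts stayed inside knockdown peaks that held 71.4% of the wild-type bases, and the density ratio was 7.30. Among the 711 doubled pairs, read in the opposite direction, the narrower wild-type peak held 68.0% of the starts of the wide knockdown peak (63.3 to 72.3) on 37.3% of its bases. For pairs whose wider peak measured 4 to 8 kb, the shares were 77.3% (73.9 to 80.4) in halved and 73.0% (67.3 to 78.0) in doubled pairs, with overlapping intervals. Starts were denser in the narrower peak of a pair whichever library it came from. The halved share was above the doubled one over all widths, and this was not tested between libraries. The intervals treat starts as separate, although a pair can hold several.

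Members held a start less often than the other narrower pairs, and so did the doubled pairs. A start lay in the wild-type peak of 35.4% of halved pairs, 52.4% of the other narrower pairs and 48.1% of all one-to-one pairs. Doubled pairs, by their wide knockdown peak, had 40.2%, and by their wild-type peak, of a median 2 kb, 29.5%. Among pairs whose wider peak measured 4 to 8 kb the share was 34.1% for halved pairs, 38.4% for the knockdown peaks of doubled pairs and 53.4% for the other narrower pairs. A low share was thus common to pairs with a large change of width in either direction. A further 756 members (35.4%) touched a protein-coding gene without holding a start, against 25.9% of all pairs and 32.9% of doubled pairs. No such gene was touched by 624 members (29.2%), against 26.1% of all pairs and 37.6% of doubled pairs. These shares go by the wild-type peak. Gene bodies made up 59.1% of the retained and 56.6% of the uncovered bases.

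Around starts that stayed covered, uncovered bases lay on both sides in similar amounts. A shorter total reach in the knockdown follows from the choice of narrower pairs. In 319 members with a single start of known strand inside the knockdown peak, the wild-type peak reached a median of 2.85 kb upstream and 3.15 kb into the gene. The knockdown peak reached 1.1 kb upstream and 1.42 kb downstream. More bases were uncovered on the gene side in 152 members and on the upstream side in 160, with 7 equal, and 50.3% of the uncovered bases lay downstream. In the 2121 other narrower pairs of this kind the reach was 2.59 and 2.82 kb in the wild type and 1.92 and 2.13 kb in the knockdown. Their wild-type domains were thus nearly as wide around the start as those of the members. In 78 members the single start was uncovered, at a median of 0.471 kb from the knockdown peak, which lay downstream of the start in 48 and upstream in 30.

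**Figure D4:**
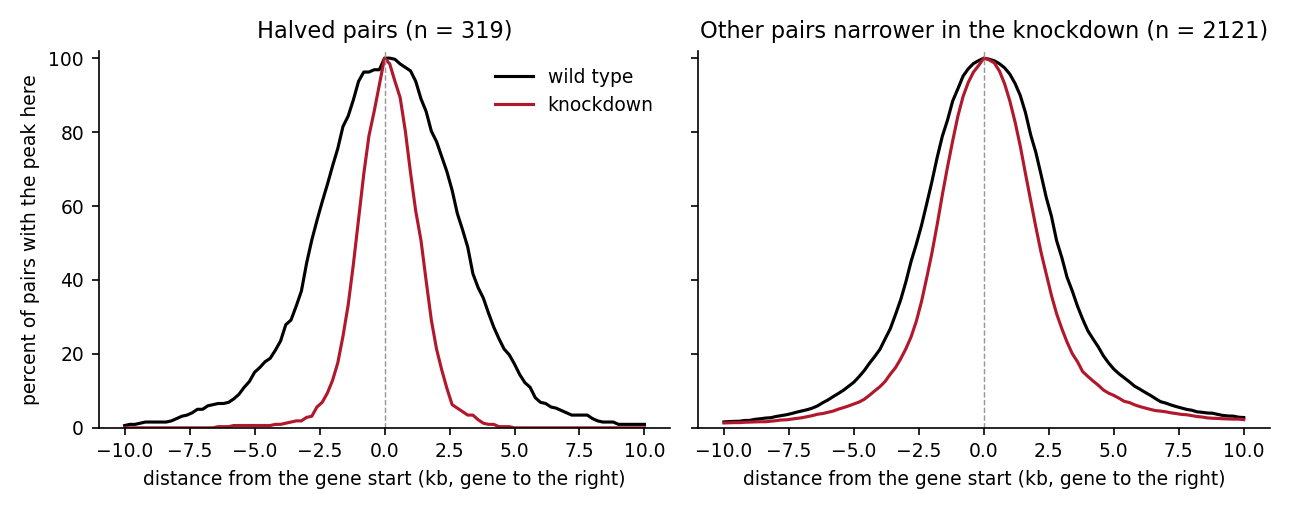
Percent of pairs whose peak covers each distance from the gene start in kb, with the gene to the right, for wild type (black) and knockdown (red). Left, 319 halved pairs, and right, 2121 other narrower pairs, each with a single start inside the knockdown peak, so both curves reach 100 at the start by choice. The knockdown curve is narrower than the wild-type curve in both panels, which follows from the choice of pairs narrower in the knockdown.

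Covered starts were richer in CpG than uncovered ones. The 675 distinct promoter windows of members that stayed in the knockdown peak held a median of 28 CG dinucleotides (quartiles 20 and 36), and the 166 outside held 16 (8 and 26). At least 10 were present in 92.0% and 69.9% of them, against 90.8% and 59.7% in the other narrower pairs and 70.0% of all 21041 windows of the genome table. Windows with no wild-type peak had a median of 6. The other narrower pairs gave medians of 28 for covered and 13 for uncovered windows. The letters TATAAA, on either strand, stood in 4% of the covered and 7.23% of the uncovered windows of the members, in 5.19% of the covered windows of the other narrower pairs, and in 9.54% of all windows. The cyclic AMP response element TGACGTCA, which reads the same on both strands, stood in 27 covered windows (4%) and 4 uncovered ones (2.41%), against 2.39% of the covered windows of the other narrower pairs and 2.30% of all windows. The ETS core CCGGAAG, on either strand, stood in 17.6%, 15.7%, 13.8% and 12.9% of these windows in the same order. Both of the latter motifs hold a CG themselves. The covered windows of the members were thus close to those of the other narrower pairs in CpG and TATAAA, and these shares describe letters only. As seen in the printed windows, single promoters depart from the medians, with few CG dinucleotides in the covered UBXN6 window.

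The fixed lists of developmental genes hardly met the halved pairs. Of all protein-coding genes with a start or annotated end in a one-to-one wild-type peak, 864 of 8893 (9.72%) lay in a halved pair. None of the 20 HOX genes (in 2 pairs), 38 neural transcription factor genes and 15 pluripotency genes in one-to-one peaks did. Of the 33 mesoderm and endoderm factors 1 did, and of the 55 signalling genes 2 did. The mesoderm and endoderm factor, GATA4, and the signalling gene FGF4 were counted by annotated ends, since no start was matched. The GATA4 end may not be the gene start, since its strand was missing. The neural factors lay in peaks with a median wild-type width of 27.6 kb, where halving was rare for any pair, and with a median ratio of 0.965. Signalling and pluripotency genes lay in narrower peaks, with medians of 10.8 and 7.2 kb. Over all one-to-one pairs, 20.1% of wild-type peaks between 10 and 15 kb and 20.9% between 6 and 8 kb were halved. These shares include pairs without a start and peaks of any score, so they are not matched to the lists. The part of width in the list counts was not tested. The median ratio was 0.976 for the mesoderm and endoderm factors and 0.897 over all pairs that held a start.

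Named list members were single cases. Where only annotated ends were matched the strand was missing, so a single named end may not be the gene start. GATA4, the cardiac and endoderm factor, had an annotated end in a 5.2 kb wild-type peak that met 1.4 kb in the knockdown, 1.80 kb from that end. FGF4, a growth factor of pluripotent cells, lay with both ends inside the knockdown peak (16.2 against 7.4 kb). FGFR4, a receptor of such factors, had 3.4 against 1.2 kb, with both RefSeq starts uncovered, by 0.486 and 0.95 kb. KCNQ1, a potassium channel gene at an imprinted locus, had 13.6 against 4.4 kb around its covered annotated end. KCNJ9, an inwardly rectifying potassium channel gene, had 17.2 against 8.4 kb with 1 end covered. CACNA1H, a T-type calcium channel gene, had 7 against 2.2 kb, with an annotated end 1.23 kb outside the knockdown peak. Of the 53 neuronal channel and receptor genes with a start or annotated end in one-to-one peaks, 5 were in halved pairs (9.43%), close to the share of all genes.

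Lists tied to the mark and to m6A had few members here. In the PRC1 and deubiquitinase list 1 of 18 was in a halved pair, BAP1, the H2A deubiquitinase, with 5.6 against 2 kb and the annotated end 0.793 kb outside. None of 7 PRC2 genes was. In the m6A list 1 of 9 was, the reader YTHDF3, a paralogue of YTHDF1, with 5 against 1.8 kb and its annotated end covered. Both its peaks ranked low, at percentiles 10.5 and 4.11 of their lists. GRB10, an imprinted adaptor gene, had 6 against 2 kb with a covered start, and with KCNQ1 made 2 of 18 imprinted genes. Of 30 housekeeping genes 1 was, EEF1A1, the translation elongation factor, with 6 against 2.4 kb. The ribosomal protein genes RPL12 (10.8 against 5 kb), RPLP1 (5.8 against 2.4 kb) and RPL31 (4.4 against 1.6 kb) made 3 of 23, and only RPL31 had its start uncovered, by 0.089 kb. With counts this small no list can be called apart from the 9.72% of all genes.

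Chromosomes 22, 19 and 11 had the highest halved shares. They reached 17.5% of 520 pairs on chromosome 22 (95% Wilson interval 14.5 to 21.0), 17.0% of 1019 on chromosome 19 (14.8 to 19.4) and 16.1% of 1001 on chromosome 11 (13.9 to 18.5). The lowest were 9.77% on chromosome 18 (6.93 to 13.6) and 10.5% on chromosome 20 (8.24 to 13.3). Among pairs of 4 to 8 kb the 3 highest remained 17.3%, 17.3% and 17.5%. Doubled shares did not follow this order, with 3.27% on chromosome 22, 4.61% on chromosome 19 and 5.88% on chromosome 20. The median ratio was 0.832 on chromosome 22, 0.865 on chromosome 19 and 0.857 on chromosome 11. It was 0.870 on chromosome 18 and 0.889 over all pairs. Of the 91 members on chromosome 22, 11 lay in the 1 Mb window described below.

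**Figure D5:**
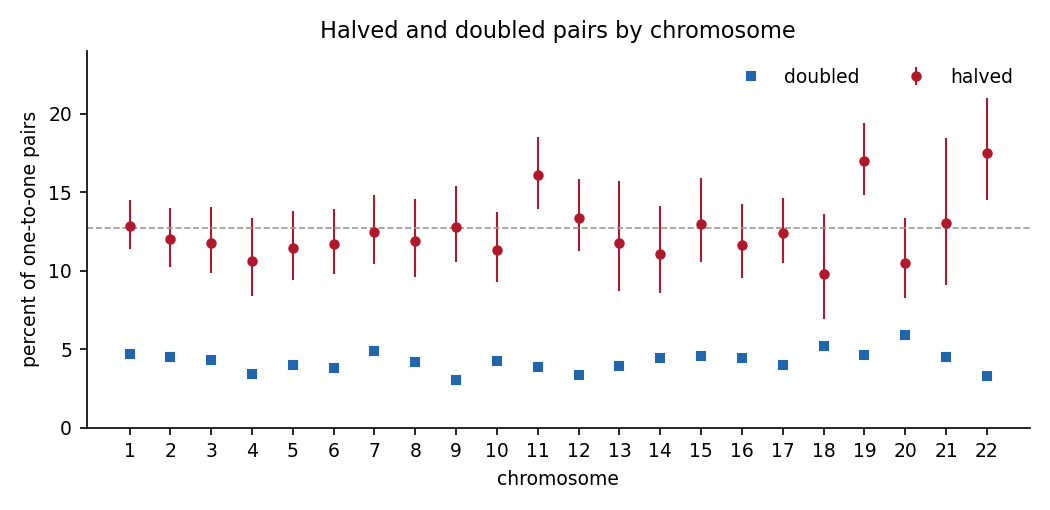
Percent of one-to-one pairs on each chromosome that were halved (red, with 95% Wilson intervals over pairs) and doubled (blue). The dashed line is the halved share of all pairs, 12.7%, and chromosomes 11, 19 and 22 have intervals wholly above it.

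A single stretch held the densest group of members. Windows of 1 Mb with at least 10 pairs numbered 633, with a median halved share of 11.8%, and 93 of them had none. The window from 22000001 to 23000000 on chromosome 22, picked out after its values were seen, had 11 of 16 pairs halved (68.8%), and no other window passed 50%. It spans the immunoglobulin lambda variable segments, which B cells rearrange and express, with PRAME and ZNF280A among them. The 11 wild-type peaks measured 4 to 15.8 kb and summed to 104.2 kb, and their knockdown peaks measured 1.6 to 4 kb and summed to 30.4 kb. All 11 knockdown peaks lay inside their wild-type partner. The wild-type peaks had a median percentile of 81.2 in their list and the knockdown peaks 45.9 in theirs. Among the pairs of the window that were not halved, that of 26.8 against 26.6 kb, at the score ceiling in both lists, hardly differed. The rest had ratios of 0.614, 0.542, 0.759 and 1.24. The window held 57 wild-type and 47 knockdown peaks in all, so most of its peaks were not one-to-one.

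Of the next 3 windows by share, chromosome 11 held a pair of them and chromosome 20 the other, with 5 of 11 pairs halved. On chromosome 11 from 2000001 to 3000000, where KCNQ1, NAP1L4, TRPM5 and TSPAN32 had starts or ends in halved peaks, 7 of 15 pairs were halved, and from 70000001 to 71000000, with CTTN, a regulator of actin, 11 of 25. Apart from such places the members were spread out. The next one-to-one pair along the chromosome was also halved for 14.5% of members, against 12.7% of all pairs. The nearest other wild-type peak lay a median of 6.4 kb from a member and 9.6 kb from the other one-to-one pairs.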

How the data were processed

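Peak lists of 2 H2AK119ub libraries were used, 1 per group, grouped by sample title. Per the submitters' processing notes, the tools were SICER 1.1, MACS2 2.1.0, Picard, SAMtools 1.3.1, Bowtie2 2.2.5 and Trimmomatic 0.35, and the build hg38. The caller behind these lists and any use of the inputs are not given in the sources used. Both deposited lists give a start, an end and a score per peak. The score is the authors' own value, up to 1000, of unstated unit, and served only for ranks and filters within a list. Ends were read as inclusive, since starts and ends fall on a grid of 200 bp.

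Pairs, widths and starts were computed with Python 3.11.15, pandas 2.3.3 and numpy 2.4.6, and Wilson intervals with scipy 1.17.1. They cover the number of pairs or starts only. The pairing was tested on simulated data. The promoter table held 15101 of 19126 protein-coding genes on chromosomes 1 to 22, and 3867 had several starts. For the other 4025 both annotated ends were used.

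Named pairs were the 10 with the most uncovered bases, the 10 with the lowest ratio in the upper 50% by score, 4 on each side of the threshold, and at most 3 genes per list with a start in a halved peak. The first 3 promoters per part were printed, without chromosome 8. The 12 lists hold 577 genes, of which 566 matched. Members, lists and rules were chosen with earlier results of these data known. Other pairings, filters and thresholds were tried, as given in the closing section.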

Additional observations from a re-analysis of the deposited data

How the results depend on the processing

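Of the alternatives tried, halved pairs numbered 1056 (10.9% of one-to-one pairs) in the upper 50% of each list by score, 1049 (6.25%) at a ratio of 0.4 or less and 3442 (20.5%) at 0.6 or less. Their share was 13.5% when peaks had to share 50% of the narrower one and 13.5% when peaks within 1 kb were merged. It was 14.0% with merging within 3 kb, 10.1% without peaks under 2 kb and 17.2% for wild-type peaks of 4 kb or more. Chosen after the data were seen, dividing ratios by their median gave 8.61%, and leaving out chromosomes 11, 19 and 22 gave 12.0%. The median of uncovered bases was 5.2 kb in the upper 50% by score, 4.2 kb with merging within 1 kb, 4.8 kb within 3 kb and 4.2 kb without peaks under 2 kb. Both flanks were uncovered in 79.8% in the upper 50% by score and 77.2% with the 50% overlap. Starts in the knockdown peak made up 78.1% with merging within 3 kb, 78.6% without peaks under 2 kb, 90.0% when a start within 1 kb counted and 80.2% with known strand alone, also an added choice. The median percentile of wild-type peaks was 48.4 for widths of 4 to 8 kb. The causes of these shifts were not tested. The other 20 of the 44 values stayed within 95% intervals or, for counts, within 1.5 times. A gene within 2 kb of a halved peak raised the list genes from 15 to 17. No paired analysis was possible because each group had 1 library. The unknown depth limits all widths, since a flank under the calling threshold is not in a list.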
